A study of Bos indicus with 5 samples.

Results

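The S100 genes encode small calcium-binding proteins, and 10 of them were examined in the ampulla, the wide middle part of the oviduct in which fertilization takes place. They were taken by symbol from the table of normalized reads, in the order S100A1, S100A2, S100A4, S100A6, S100A8, S100A9, S100A10, S100A11, S100A12 and S100G. A row was found for 9 of the 10 symbols, out of 24616 genes in the table, and S100A6 was not analysed here. All 9 had a mean above 5 normalized reads and were tested. S100A8 passed that limit only through one of the groups, so it had to differ, and neither counts nor medians over the 9 genes are support for a difference of the family.

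The tissue came from healthy multiparous Nelore cows (Bos indicus), 2 of which formed a large preovulatory follicle and then a large corpus luteum (LF/LCL) and 3 of which formed small ones (SF/SCL), with 1 library from each animal. All cows received prostaglandin F2α analog and GnRH agonist for pre-synchronization, then a device with 1 g of progesterone together with 2 mg estradiol benzoate, prostaglandin again when the device was taken out and 6 h later, and GnRH to induce ovulation. LF/LCL cows had a further prostaglandin injection at device insertion, and their device was removed 42 h before GnRH rather than 30 h. The ampulla was collected on day 4 through the whole thickness of the wall on the side of the corpus luteum. The cows sequenced were those ranked at the top (LF/LCL) or bottom (SF/SCL) of their group for follicle, corpus luteum and steroid values, so that the groups stand for the extremes of the model. A further LF/LCL library was left out by the authors for low quality.

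S100 proteins mostly work as dimers. Each chain carries a pair of EF-hand loops, and binding of calcium opens a surface that grips a target protein. Some members act inside the cell on annexins, myosin or the tumour suppressor p53. Others are released by leukocytes and stressed epithelium and act on receptors such as RAGE and TLR4. In the reproductive tract S100G, also named calbindin-D9k, is known as a steroid-responsive buffer of cytosolic calcium. In the RefSeq annotation of the assembly NIAB-ARS_B.indTharparkar_mat_pri_1.0, which is not the build used for mapping, 12 S100 genes share 1 chromosome. In the order of these S100 genes alone, S100A9 comes after S100A8 and S100A10 after S100A11, while S100G is on another chromosome. S100A12 is not among the 12 under that symbol, so its place is not given. Genes outside the family were not placed, so this order does not show that any of these genes are direct neighbours.

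The libraries held from 13418278 to 19592174 reads assigned to genes, which limits the precision of the members with few reads. Marker genes of the oviduct epithelium were present in each library. The summed level of 7 secretory epithelium markers, which include the oviduct glycoprotein OVGP1, ran from 149557 to 175090 normalized reads in LF/LCL and from 147715 to 175316 in SF/SCL. The 12 ciliated cell markers summed to 55062 and 69374 in LF/LCL versus 78068 to 84361 in SF/SCL. The 8 smooth muscle markers summed to 55039 and 109416 in LF/LCL versus 13929 to 37134 in SF/SCL. In the same order of groups, 7 stromal fibroblast markers ran from 29554 to 72110 and from 18850 to 40929, 6 endothelial markers from 4603 to 7338 and from 5739 to 7901, and 5 mesothelial markers from 12815 to 20207 and from 20144 to 27266. In whole tissue, fewer cells of a type and less RNA per cell cannot be told apart.

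Among the S100 genes of the set that passed the limit in both groups, the clearest difference relative to the spread was in the calgranulin S100A12. The calgranulin S100A8 was close to absent in SF/SCL. It was tested only because of its LF/LCL values, so its difference is a description. The mean of S100A12 was 2.91 times as high in LF/LCL. S100G, with a mean 3.14 times as high, and S100A10, with a mean 1.55 times as high, had higher values in both LF/LCL libraries than in any SF/SCL library, and S100A1 had lower ones. For S100A2, S100A4, S100A9 and S100A11 the limma adjusted p was 0.712 or more. With limma, 0 of the 9 genes had an adjusted p under 0.05, where 0% of the 15815 genes tested did, and the smallest adjusted p among the 9 was 0.218 for S100A8.

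**Figure D1:**
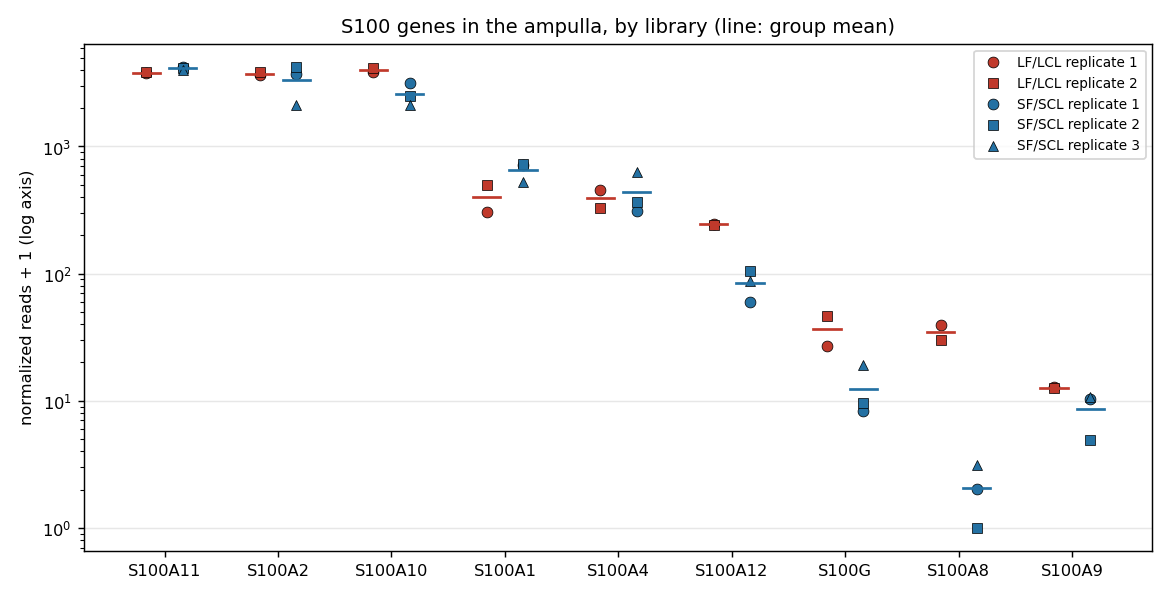
Normalized reads plus 1 (log axis) of the 9 S100 genes in each library, with LF/LCL in red, SF/SCL in blue, a symbol for each replicate and a line at the group mean, from the highest mean to the lowest. S100A8 lies at 29.0 and 38.7 in LF/LCL and at or under 2.15 in SF/SCL, while S100A11 lies between 3783 and 4217 in all 5 libraries. Genes are not corrected for length, so heights are compared between libraries and not between genes.

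S100A8 and S100A9 form calprotectin, a heterodimer that leukocytes release and that binds zinc and manganese as well as calcium. S100A8 had 38.7 and 29.0 normalized reads in replicates 1 and 2 of LF/LCL versus 1.04, 0 and 2.15 in SF/SCL replicates 1, 2 and 3. Both LF/LCL libraries were therefore above every SF/SCL library. As whole reads these were 63 in LF/LCL against 3 in SF/SCL, a ratio of 35.4 (95% exact interval 11.6 to 176, counting error only). The 0 in SF/SCL replicate 2 allows a level of up to 2.33 normalized reads. The log2 fold change was 4.22 ± 0.78 (SE) on the scale of the value plus 1, with a limma adjusted p of 0.218. Because S100A8 was tested only through its LF/LCL values, its rank among the genes tested is not given.

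S100A9, the partner of S100A8, had 11.7 and 11.6 normalized reads in LF/LCL versus 9.36, 3.89 and 9.66 in SF/SCL replicates 1, 2 and 3. The LF/LCL values were the higher ones, by less than the spread within SF/SCL. The 22 reads in LF/LCL and 23 in SF/SCL gave a ratio of 1.61 (95% exact interval 0.857 to 3.03, counting error only). Even without the spread between animals, this interval includes no difference. The log2 fold change was 0.64 ± 0.64 (SE, limma adjusted p = 0.756). The ratio of S100A8 to S100A9 was 3.3 and 2.5 in LF/LCL versus 0.111, 0 and 0.222 in SF/SCL. This ratio was higher in both LF/LCL libraries than in any SF/SCL library, a description given with no test.

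S100A12, or calgranulin C, is a further leukocyte S100 protein and a ligand of RAGE. It had 243.9 and 241.0 normalized reads in LF/LCL versus 59.3, 103.4 and 86.9 in SF/SCL. The LF/LCL libraries lay close together and above every SF/SCL library. The LF/LCL mean was 242 ± 2.07 (SD, n = 2) and the SF/SCL mean 83.2 ± 22.3 (SD, n = 3), which gave a log2 fold change of 1.57 ± 0.30 (SE, limma adjusted p = 0.222). This was rank 119 by p among all genes tested.

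The tests for read counts differed on these genes. On the whole reads recovered from the table, DESeq2 gave an adjusted p of 0.00211 for S100A8 and 0.000528 for S100A12. With the edgeR exact test these were 5.64e-06 and 0.00272. Both tests called 2 of the 9 members, S100A8 and S100A12. DESeq2 called 3.03% of all genes (1.46% higher in LF/LCL) and the exact test 2.12% (1.16% higher in LF/LCL). S100A8 was tested only through its LF/LCL values, so the count of 2 is no support for a difference of the family. The edgeR quasi-likelihood test on the same reads called 0% of genes, with adjusted p of 0.222 for S100A8 and 0.226 for S100A12. The log2 fold change of S100A8 ran from 2.69 with a pseudocount of 5 to 5.11 with DESeq2. That of S100A12 lay between 1.35 and 1.74 under all 18 alternatives. Over the alternatives the adjusted p ran from 5.64e-06 to 0.565 for S100A8 and from 0.000528 to 0.5 for S100A12.

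**Figure D2:**
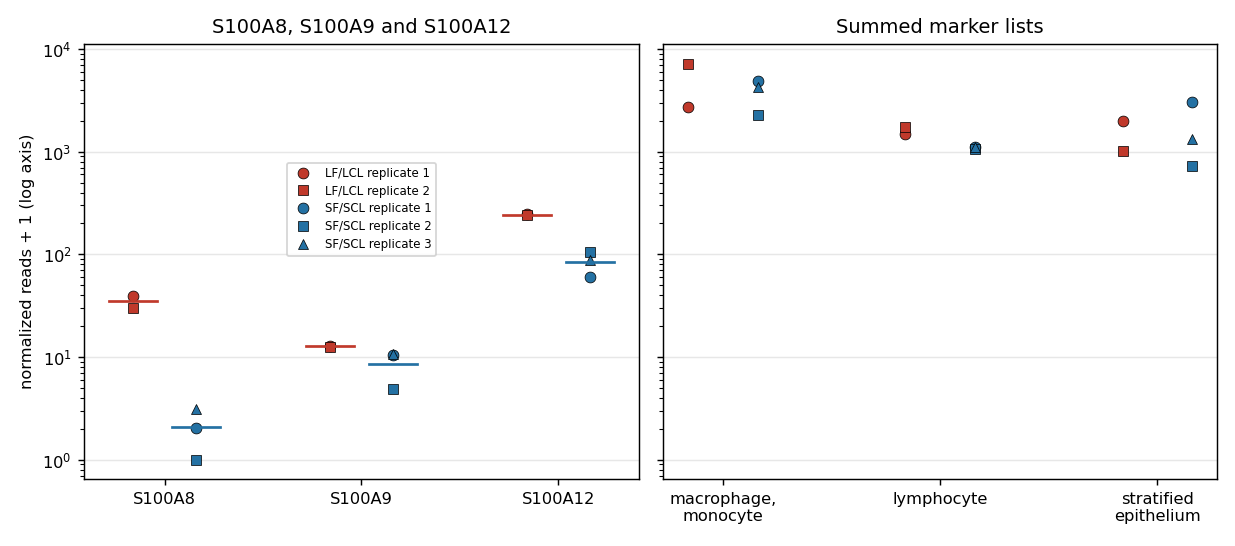
Normalized reads plus 1 (log axis) of S100A8, S100A9 and S100A12 (left) and of the summed levels of 3 marker lists (right), per library, with LF/LCL in red and SF/SCL in blue. The groups are separate for the 3 S100 genes and for the lymphocyte sums, while the macrophage and monocyte sums and the stratified epithelium sums overlap.

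Because these genes are known from neutrophils and monocytes, leukocyte markers were read beside them. The neutrophil list had 11 rows for 14 symbols, and 3 were tested, PGLYRP1, TREM1 and ITGAM. None had an unadjusted limma p under 0.05, where 11.5% of all genes tested did. ITGAM, an integrin that monocytes also carry, had 64.5 and 37.8 normalized reads in LF/LCL versus 56.1, 16.3 and 79.4 in SF/SCL. PGLYRP1, a granule protein, had 18.8 and 11.6 versus 8.32, 56.0 and 36.5, and TREM1, a receptor also found on monocytes, 14.1 and 15.5 versus 18.7, 9.33 and 15.03. The groups overlapped in each of the 3 genes, where 30.1% of all genes tested did not overlap. So few genes say little about neutrophils. The other 8 rows had means under 5 normalized reads, among them the growth factor receptor CSF3R with at most 4.69, the granule enzyme MPO with at most 7.74 and MMP8 with no read in any library. 1 further gene of the list is not reported, so no sum of the list is given. The 10 macrophage and monocyte markers summed to 2737 and 7194 in LF/LCL versus 2276 to 4863 in SF/SCL. With limma, 0 of the 10 had an unadjusted p under 0.05, where 11.5% of all genes tested did. The 10 lymphocyte markers summed to 1478 and 1748 in LF/LCL versus 1064 to 1110 in SF/SCL. Of the 8 tested, 8 were higher in LF/LCL, as were 8032 of the 15815 genes tested. With limma, 3 of them had an unadjusted p under 0.05 with LF/LCL above, where 5.64% of all genes tested did. The smooth muscle markers also stood higher in LF/LCL, 8 of 8 of them, with a median log2 fold change of 1.54 (0.01 over all genes). The part of leukocytes or smooth muscle in the values of S100A8, S100A12, S100A10 and S100G was not tested. Of the stratified epithelium markers, whose cells also make calgranulins, the sum was 2004 and 1009 in LF/LCL and from 723 to 3082 in SF/SCL, so that the groups overlapped. The 7 blood marker rows summed to between 90 and 528 in LF/LCL and between 32.2 and 256 in SF/SCL, with ALAS2 and PPBP at 0 in all libraries.

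The genes with the profile nearest to that of S100A12 were TMEM198, KCNK2 and NDRG4. Their root mean square distance from it, on centred log2 values over the 5 libraries, was 0.181, 0.214 and 0.216, against 0.810 for a flat profile. TMEM198 had 71.5 and 75.5 normalized reads in LF/LCL versus 20.8, 41.2 and 34.3 in SF/SCL. NDRG4 had 452 and 352 versus 108, 131 and 158. KCNK2 had only 10.6 and 13.6 versus 2.08, 4.66 and 5.37. It passed the limit of a mean over 5 only through LF/LCL, so it had to be higher there. Unnamed genes were passed over in this choice, which is a description of 5 libraries.

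S100A10 and S100A11 are the annexin partners of the family. S100A10, or p11, holds a pair of ANXA2 molecules together at the membrane and has lost calcium binding through changes in its loops. It had 3877 and 4156 normalized reads in LF/LCL versus 3129, 2506 and 2124 in SF/SCL, with no overlap. The log2 fold change was 0.65 ± 0.17 (SE), with a limma adjusted p of 0.306 and adjusted p from 0.0647 (DESeq2) to 0.581 over the alternatives. Its value stayed between 0.52 and 0.80 when any 1 library was left out. ANXA2 itself ran from 8645 to 9846 in LF/LCL and from 7848 to 9859 in SF/SCL, with a log2 fold change of 0.06 ± 0.14 (SE). The S100A10 reads per ANXA2 read were 0.449 and 0.422 in LF/LCL versus 0.348, 0.254 and 0.271 in SF/SCL.

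S100A11 was the steadiest gene of the set. It had 3783 and 3837 normalized reads in LF/LCL versus 4217, 4123 and 3979 in SF/SCL, and its highest value was 1.11 times its lowest. The SF/SCL values were all above the LF/LCL values, but the log2 fold change was only -0.11 ± 0.09 (SE, limma adjusted p = 0.712). Its partner ANXA1 had a log2 fold change of 0.04 ± 0.11 (SE). S100A11 reads per ANXA1 read ran from 3.1 to 3.95 over the libraries, with overlap between the groups.

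S100G buffers calcium in cells that move it across an epithelium. It had 25.8 and 45.5 normalized reads in LF/LCL versus 7.28, 8.55 and 18.2 in SF/SCL. There was no overlap, although the LF/LCL values were far apart and rested on 69 reads in all, against 35 in SF/SCL. Its log2 fold change was 1.62 ± 0.59 (SE, limma adjusted p = 0.391), and it lay between 1.22 and 2.02 when 1 library was left out. Of the other genes of transcellular calcium transport, 4 of the 6 tested had a positive log2 fold change and 2 a negative one. The entry channel TRPV6 had a log2 fold change of 0.02 ± 0.28 (SE), TRPV5 of -0.08 ± 0.40 and the vitamin D receptor VDR of 0.22 ± 0.39. The calcium pump ATP2B4 had 0.08 ± 0.12 and the sodium and calcium exchanger SLC8A1 had 0.43 ± 0.36, the largest of the list. Of the 6 tested genes of this list, 1 had an unadjusted limma p under 0.05, where 11.5% of all genes tested did. This was the related pump ATP2B1, with 2201 and 1882 normalized reads in LF/LCL versus 2317, 2700 and 2859 in SF/SCL. Its log2 fold change was -0.36 ± 0.13 (SE, limma adjusted p = 0.398). CALB1, which encodes the larger calbindin, had no read in any library.

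S100A1, known from striated muscle where it binds calcium channels and pumps, went the other way. It had 302.6 and 493.6 normalized reads in LF/LCL versus 716.3, 728.2 and 523.7 in SF/SCL. The nearest libraries of the groups, LF/LCL replicate 2 and SF/SCL replicate 3, were closer together than the LF/LCL libraries were to each other. Its log2 fold change was -0.75 ± 0.26 (SE, limma adjusted p = 0.373), and it moved between -1.10 and -0.39 when 1 library was left out. Among the marker lists, 12 of 12 ciliated cell markers (median -0.35) and 4 of 5 mesothelial markers (median -0.81) also had a negative log2 fold change. The smooth muscle markers went the other way, with 8 of 8 positive. Over all 15815 genes tested, 7783 were negative and 8032 positive. The part of any of these cells in the S100A1 value was not tested.

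S100A4 and S100A2 showed no difference beyond their spread. S100A4, a protein of fibroblasts and leukocytes that binds the nonmuscle myosin chain MYH9, had 457.4 and 324.3 normalized reads in LF/LCL versus 310.9, 362.9 and 633.2 in SF/SCL. The highest and the lowest value were both in SF/SCL. Its log2 fold change was -0.11 ± 0.34 (SE, limma adjusted p = 0.936), and became 0.20 without SF/SCL replicate 3 and 0.14 without LF/LCL replicate 2. S100A2, an epithelial and largely nuclear member that binds p53, had 3633 and 3848 normalized reads in LF/LCL versus 3730, 4188 and 2138 in SF/SCL. SF/SCL replicate 3 stood below the other libraries. On the log2 scale the fold change was 0.22 ± 0.29 (SE, limma adjusted p = 0.830), and was -0.08 without that library.

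**Figure D3:**
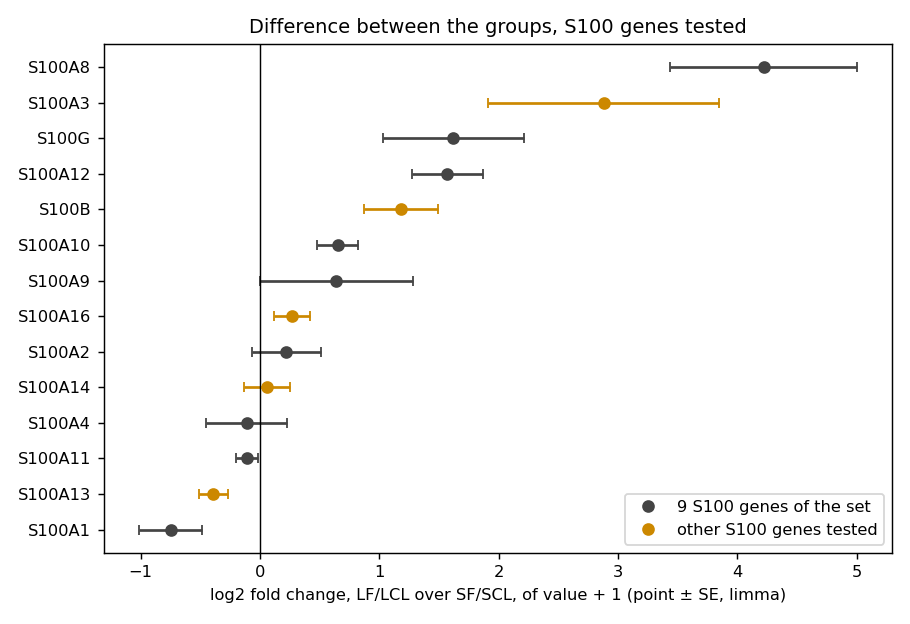
Log2 fold change of LF/LCL over SF/SCL, with its standard error, for the 14 S100 genes tested, ordered by size (limma, value plus 1). S100A8 is at 4.22 and S100A1 at -0.75, and the bars of S100A2, S100A4 and S100A14 cross 0.

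Across the set, 5 of the 9 genes had an unadjusted p under 0.05 with limma, where 11.5% of all genes tested did, 4 with LF/LCL above (5.64% of all genes) and 1 with SF/SCL above (5.86%). The groups did not overlap in 7 of the 9 genes, against 30.1% of all genes tested, 5 with LF/LCL above (15%) and 2 with SF/SCL above (15.1%). The median log2 fold change was 0.64, and 0.01 over all genes. S100A8 entered the test only through its LF/LCL values, and the 9 genes share the same 5 animals, so these figures are a description.

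The other S100 genes were read from a list of 11 symbols, of which 8 had a row and 5 were tested. S100B, known from glia and other cells, had 27894 and 35927 normalized reads in LF/LCL versus 20010, 13945 and 9770 in SF/SCL. On the log2 scale the fold change was 1.18 ± 0.31 (SE, limma adjusted p = 0.306). On recovered reads the adjusted p was 0.0166 with DESeq2, 0.0341 with the edgeR exact test and 0.319 with the edgeR quasi-likelihood test. S100A3 had 63.3 and 30.0 in LF/LCL versus 5.20, 16.3 and 1.07 in SF/SCL, that is, a log2 fold change of 2.88 ± 0.97 (SE, limma adjusted p = 0.365). S100A13 had a log2 fold change of -0.39 ± 0.12 (SE), S100A14 of 0.06 ± 0.19 and S100A16 of 0.27 ± 0.15. S100B and S100A3 were above in both LF/LCL libraries and S100A13 below, while S100A14 and S100A16 overlapped between groups. Of the 5, 2 had LF/LCL above (5.64% of all genes tested) and 1 had SF/SCL above (5.86%) at an unadjusted limma p under 0.05. S100A5, S100A7 and S100Z did not reach a mean of 5 normalized reads.

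Receptors that extracellular S100 proteins bind were near level or had values in opposite directions. TLR4, the receptor for S100A8 and S100A9, had 881.9 and 816.0 normalized reads in LF/LCL versus 445.0, 712.7 and 516.2 in SF/SCL, that is, a log2 fold change of 0.63 ± 0.21 (SE, limma adjusted p = 0.362). AGER, which encodes RAGE, had 65.7 and 54.2 in LF/LCL versus 126.8, 40.4 and 262.9 in SF/SCL, so that the groups overlapped. ALCAM, an adhesion molecule of the immunoglobulin family, had 353.0 and 323.3 in LF/LCL versus 504.3, 593.8 and 566.6 in SF/SCL. On the log2 scale the fold change was -0.71 ± 0.14 (SE, limma adjusted p = 0.222). On recovered reads its adjusted p was 0.0055 with DESeq2, 0.0438 with the edgeR exact test and 0.239 with the edgeR quasi-likelihood test. BSG and NPTN, related receptors for S100A9 and S100A8, had log2 fold changes of 0.26 ± 0.24 and -0.11 ± 0.12 (SE). Of 6 receptor genes tested, 1 had LF/LCL above (5.64% of all genes tested) and 1 had SF/SCL above (5.86%) at an unadjusted limma p under 0.05.

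Of 11 intracellular targets, 1 had LF/LCL above (5.64% of all genes tested) and 1 had SF/SCL above (5.86%) at an unadjusted limma p under 0.05. The first was ANXA6, an annexin abundant in muscle, with 2062 and 1313 normalized reads in LF/LCL versus 897.3, 693.2 and 755.5 in SF/SCL, that is, a log2 fold change of 1.08 ± 0.22 (SE) and a limma adjusted p of 0.235. DESeq2 gave 0.00173, the edgeR exact test 0.00159 and the edgeR quasi-likelihood test 0.239 as its adjusted p. The smooth muscle markers stood in the same order, and their part was not tested. The second was CACYBP, the binding protein of S100A6, with 1936 and 1835 in LF/LCL versus 2530, 2375 and 2626 in SF/SCL. On the log2 scale the fold change was -0.41 ± 0.10 (SE, limma adjusted p = 0.284), and the adjusted p was 0.0305 with DESeq2 and 0.239 with the edgeR exact test. MYH9, the target of S100A4, had a log2 fold change of 0.24 ± 0.13 (SE), ANXA11 of -0.06 ± 0.11, S100PBP of -0.28 ± 0.15 and AHNAK, which joins the S100A10 and ANXA2 complex, of -0.15 ± 0.15.

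**Figure D4:**
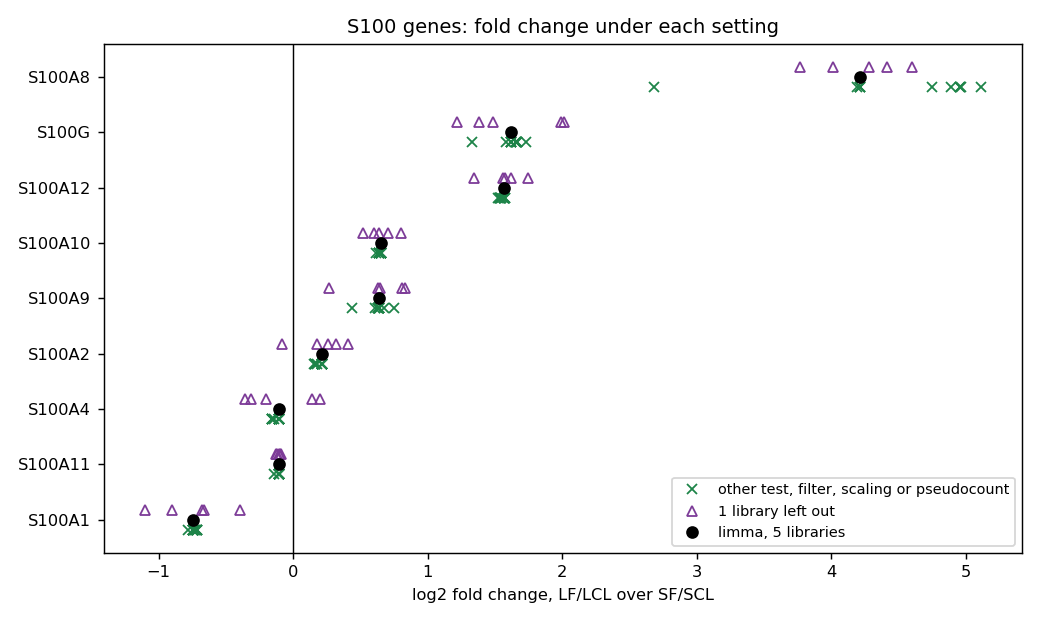
Log2 fold change of LF/LCL over SF/SCL for the 9 S100 genes with limma on 5 libraries (black), under another test, filter, scaling or pseudocount (green crosses) and with 1 library left out (purple triangles). S100A8, S100G, S100A12, S100A10 and S100A9 stay above 0 and S100A1 and S100A11 below it throughout, while S100A2 and S100A4 cross 0 when a library is left out.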

How the data were processed

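PolyA RNA libraries from the ampulla were sequenced as read pairs. Per the labels and the study's methods, the authors cleaned reads with seqyClean, mapped them with TopHat2 2.0.8 and Bowtie2 2.1.0 to masked UMD cattle sequence, and counted uniquely mapped reads per gene with HTSeq 0.5.4p2. Whether strand was used in counting was not given in the sources used here. The deposited values are a normalized signal, the reads of a gene divided by 1 DESeq 1.12.1 size factor per library. Dividing by the value of 1 read gave whole reads for 100% of nonzero values (tolerance 0.05 reads). Only uniquely mapped reads count, so overlapping or similar genes are uncertain.

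The test was limma 3.58.1 (lmFit, eBayes with trend and robust) on log2(value + 1), for the 15815 genes with a mean over 5. It was two-sided, with Benjamini-Hochberg adjustment over all genes tested and a threshold of 0.05. The plan named edgeR for raw counts, so edgeR 4.0.16 and DESeq2 1.42.0 were run on the recovered reads as alternatives. Scripts were tested on simulated data. The labels give no batch. Replicates are different animals, numbered by accession. Members and lists were chosen with earlier results of these data known. Named genes are the members, their known partners, and list genes with an unadjusted p under 0.05. The 3 nearest profiles were taken for the member with the largest change among those with a mean of at least 50. Exact intervals are Clopper-Pearson on the reads pooled over the animals of each group, converted to ratios. They leave out the spread between animals. 1 gene of the neutrophil list is not reported here, for a reason unrelated to its values, so that list is incomplete. The oviduct isthmus was not analysed here.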

Additional observations from a re-analysis of the deposited data

How the results depend on the processing

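The count of 0 genes, and of 0 of the 9 S100 genes, at a limma adjusted p under 0.05 was the same in all fits except DESeq2, with 460 genes and 2 members, and the edgeR exact test, with 336 genes and 2 members. The cause was not tested. It ran from 0 to 0 when each library was left out. With 1 LF/LCL library left, that library was taken to vary like the other group. The 5 members with an unadjusted p under 0.05 became 3 with a mean over 50, where S100A8, S100A9 and S100G are not tested, and ran from 3 to 5 without 1 library. They numbered 3 without LF/LCL replicate 2 and without SF/SCL replicates 1 or 2, and S100A8 and S100A12 were among them in each of these fits. The 7 members without overlap became 4, and the median log2 fold change of the members moved from 0.64 to 0.054, with a mean over 50, because fewer genes entered. S100A8 was also not tested here under the filter described in the study's methods, a mean over 5 and above the SD. With this filter 4 members had an unadjusted limma p under 0.05, 6 had no overlap and the median was 0.427. The paper itself does list S100A8 with the LF/LCL ampulla genes of its enriched cytoskeleton and extracellular matrix process. The 15815 ampulla genes it reports as analysed equal the number with a mean over 5 alone here, against 15507 with the SD rule. Of 158 alternative values of single members, 151 kept their direction and their side of the threshold, 4 passed it (S100A8 and S100A12 in the same 2 tests) and 3 reversed. These were S100A2, which ran from -0.080 to 0.41 without 1 library, and S100A4, from -0.35 to 0.197. Scalings moved the median of all genes by less than 0.1. No paired analysis was possible because each library came from a different animal and the replicate numbers follow only the order of the samples. The 22 and 23 reads of S100A9 in the groups leave an interval of its ratio from 0.857 to 3.03, which is the limit that depth sets there.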
